A study of Mus musculus with 39 samples.

Results

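This report describes 1331 glucocorticoid receptor (GR) sites that were found in Afos cells given both hormones and in no site list of the parental 7438 cells. They were taken from the first of 2 replicate GR ChIP-seq lists of Afos cells with dexamethasone plus estradiol. A site was kept if at least 1 bp of it overlapped a site of the second replicate list, and if no base of it overlapped any of the 8 lists of 7438 cells. The first list held 14160 sites and the second 10309. Of the first list, 9105 sites were also in the second, and the 1331 sites, called Afos-only below, made up 14.6% of these reproducible sites and 9.40% of the list. The other 7774 reproducible sites (85.4%) overlapped at least 1 list of 7438 and are called shared. The series holds 110608 called sites in 24 lists.

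7438 cells are mouse mammary cells that carry GR fused to GFP and the estrogen receptor (ER) fused to Cherry, both under a tetracycline-regulated promoter, so the receptors mapped here include fusion proteins expressed from transgenes after tetracycline had been removed for 24 h. The Afos samples are 7438 cells with Afos, and all lists used here come from cells with both fusions. For each receptor, cells of either kind received no hormone, dexamethasone (Dex, a synthetic glucocorticoid that activates GR) at 100 nM, estradiol (E2, which activates ER) at 100 nM, or both, for 30 min. Afos cells had 2 replicate lists for each receptor and treatment, and for 7438 cells 1 list of each was used. Sequencing depth is unknown, as only called sites without read totals were used.

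GR and ER are steroid receptors, transcription factors that bind chromatin at many sites once their hormone is present. Many GR sites are known to lie in chromatin that other factors keep open before the hormone arrives, and AP-1, a dimer of Fos and Jun proteins, is one of the best described of them. The labels do not explain the name Afos. A-Fos is the name of an engineered Fos mutant, a dominant negative, which pairs with Jun and prevents AP-1 from binding DNA. Such a protein is commonly used to ask which receptor sites depend on AP-1, whereas the sites described here are those listed only when Afos was present. No measurement of AP-1, of Afos or of chromatin opening was used here.

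The lists of the 2 cell types were made differently, and this bears on what "in no 7438 list" means. In the 7438 lists all sites had a width of 150 bp, their highest tag density (the authors' measure of peak height) began at 10.0 and their z-score at 15.0. In the Afos lists widths began at 251 bp, densities at 0.583 and z-scores at 10.2. Of the Afos-only sites, 954 (71.7%) met both 7438 limits in the first list, 448 (33.7%) in the second and 401 (30.1%) in both. The other 930 sites were below a 7438 limit in at least 1 Afos list, so for these, a height under the limit and the absence of a site in 7438 cells cannot be told apart. Among shared sites 5799 (74.6%) met the limits in both lists. The scaling of tag density is not described, so equal densities in separate lists may not be equivalent. For both receptors, the names of the 7438 lists filed as untreated and as Dex+E2 contradict their labels. Since all 8 lists were used together, this does not alter which sites were chosen.

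The 8 lists of 7438 differed widely in length and in how many reproducible sites they removed. GR Dex had 12084 sites, and the lists labelled untreated had 9503 for GR and 11982 for ER. Those labelled Dex+E2 had only 143 for GR and 373 for ER, and the GR one held 81 reproducible sites. The untreated and Dex+E2 labels are those that the list names contradict. The GR Dex list held 6300 of the 9105 sites (69.2%), and 1221 of these were in no other 7438 list. The GR list labelled untreated held 5905 (64.9%), of which 40 were in no other 7438 list, and the ER list labelled untreated held 3790 (41.6%), of which 329 were in no other. The other 5 lists held between 81 and 1758 sites, and between 0 and 10 of these were in no other 7438 list. Thus 7179 of the shared sites overlapped a 7438 GR site, and 595 overlapped 7438 ER sites only. If the GR Dex list of 7438 had not been used, 2552 sites would have been chosen in place of 1331, so a single list, whose replicate was not analysed here, decided 1221 exclusions.

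Afos-only sites were weaker than shared sites in both lists that defined them. Strength was taken as the percentile rank of a site's peak density among all sites of the same list, where 100 is the top. The median Afos-only site stood at percentile 43.5 of the first list (lowest 0.0141, highest 96.0) and at 20.5 of the second (lowest 0.0340, highest 86.7). Shared sites had medians of 71.0 and 61.5. As densities, the Afos-only medians were 13.4 in the first list and 10.1 in the second, against 23.0 and 18.6 for shared sites. The sites were chosen by their presence in these 2 lists and their absence from the 7438 lists, so ranks, widths, densities and distances to 7438 sites describe the choice and were not tested.

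Few Afos-only sites reached the upper part of either list. In the first list 540 (40.6%) were above the median of the list and 48 (3.61%) were above the 80th percentile. In the second list 145 (10.9%) were above the median and 4 (0.301%) above the 80th percentile. The shared sites above the 80th percentile were 2769 (35.6%) and 2063 (26.5%). The first list gave the higher density at 1056 of the 1331 sites. Across sites, the ranks of the 2 lists had a Spearman correlation of 0.605 for Afos-only sites (n = 1331) and 0.795 for shared sites (n = 7774), given as a description only, because sites of 1 library share its depth.

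**Figure D1:**
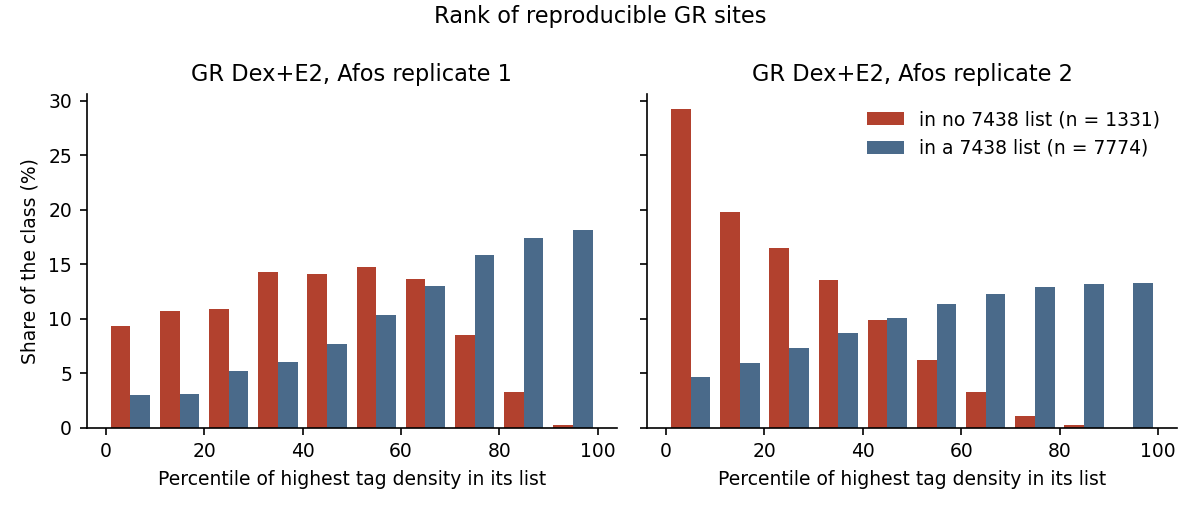
Share of Afos-only sites (red, in no 7438 list) and shared sites (blue, in a 7438 list) in each 10 percentiles of highest tag density, for the first (left) and second (right) GR Dex+E2 list of Afos cells. Afos-only sites lie mostly in the lower and middle range, with medians of 43.5 and 20.5, and shared sites increase toward the top, with medians of 71.0 and 61.5.

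Afos-only sites were also narrower. Their median width was 600 bp in the first list (lowest 251, highest 1902; middle 50% from 526.5 to 670 bp) and 472 bp in the second, and shared sites had medians of 682 and 637 bp. Width moved with strength: from the weakest to the strongest of 5 rank classes, each spanning 20 percentiles of the first list, the median Afos-only width was 476.5, 571, 612, 676 and 742.5 bp. The shared sites of the same classes had medians of 427, 533.5, 611, 681 and 791 bp. Within a rank class the widths were thus within about 50 bp of each other, and Afos-only sites were the wider ones in the 3 lower classes. Sites in the first list but not the second, with no 7438 site, numbered 2909; their median percentile was 19.6 and their median width 473 bp. The reproducible Afos-only sites therefore lay between these unreplicated sites and the shared sites in both measures.

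The strongest Afos-only sites are printed by position in mouse build mm9, as the lists give it, without a gene because no annotation of that build was used. The site of highest mean percentile was chr12:86502475-86503282, where GR with Dex+E2 reached a density of 79.1 and 37.9. It had densities of 25 and 13.9 in the GR Dex lists and of 30.4 and 8.48 in the ER Dex+E2 lists. GR with Dex alone was thus present there in both replicates, and ER was present in both when both hormones were given. Its nearest 7438 GR site was 32940 bp away.

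Next in rank was chr11:95120424-95121162, where the GR density was 52.3 and 32.7 with Dex+E2 and 47.3 and 20.5 with Dex. No ER list held that site. At chr19:42435920-42436659 the GR densities were 44.7 and 30.7 with Dex+E2 and 32.5 and 15.8 with Dex, and ER was listed only in the first Dex+E2 list, at 10.4. At chr1:92344274-92344674, which lay 485 bp from a 7438 GR site, they were 59.7 and 24.7 with Dex+E2 and 51.6 and 20.4 with Dex. All of these sites had GR in both Dex lists, while ER varied from absent to present in both lists. Among the 10 strongest Afos-only sites 8 were in both GR Dex lists and the other 2 in the first alone. Those 2 were chr12:80315183-80316165, with a Dex density of 16.2, and chr1:108222708-108223353, with 14.1. None of the 10 was in an ER list with E2 alone.

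The strongest sites in neither GR Dex list were of lower rank. At chr1:92248767-92249464 the GR density was 27.4 and 17.7 with Dex+E2, and ER was found in the first Dex+E2 list at 21.2. At chr16:33927350-33928030 it was 27.8 and 17.3, with no ER in any list. At chr4:54990875-54991467 it was 20.1 and 21.7, also without ER. At chr9:30640707-30641484 it was 30.6 and 15.0, with ER in the first Dex+E2 list at 17.6. ER was thus present at some of these sites and missing at others, and where present it was mostly in 1 list.

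The next comparison asked whether GR was found at the Afos-only sites when Dex was given without E2. The Afos GR Dex lists were not used to choose the sites, but the rule removed every site in the GR Dex list of 7438, so a lower share than that of shared sites is in part fixed by the choice. They held 806 Afos-only sites (60.6%, exact 95% interval 57.9% to 63.2%) in replicate 1 and 293 (22.0%, 19.8% to 24.3%) in replicate 2. Over all 9105 reproducible sites, 74.1% and 52.6% were in these lists, and Afos-only sites were below this background in both lists, with the limit just given. Intervals on shares of sites are Clopper-Pearson intervals, cover counting error only, and take sites as independent, which neighbouring sites are not. The lists differed in length, 8873 sites in replicate 1 and 5136 in replicate 2, and the share was far lower in the shorter list.

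Combining the replicates, 823 Afos-only sites (61.8%) were in at least 1 GR Dex list, against 74.7% of all reproducible sites, and 276 (20.7%) were in both, against 52.1%. The mean share over the 2 lists was 41.3% ± 27.3 (SD, n = 2) for Afos-only and 67.1% ± 13.1 for shared sites. The difference was -15.8 percentage points in replicate 1 and -35.9 in replicate 2, with a mean of -25.9. Afos-only sites were thus lower in each list. Both classes were measured in the same 2 lists, so the within-list differences are the fitting measure, and their exact sign-flip permutation gave p = 0.5, the smallest that 2 pairs allow. The exact permutation test that takes the 4 shares as unpaired, two-sided, gave p = 0.667 (0.762 after Benjamini-Hochberg adjustment over 8 tests) and cannot go below 0.333.

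Where GR was found with Dex alone, the Afos-only sites were again low in rank. Their median percentile was 26.8 within the first GR Dex list and 15.0 within the second, against 65.9 and 55.6 for shared sites in the same lists. The rule removed sites in the GR Dex list of the parental cells, so these ranks may be in part fixed by the choice. Since Afos-only sites were weaker, shares were also compared within the 5 rank classes. In the first GR Dex list the Afos-only share was 47.4%, 57.3%, 64.2%, 66.8% and 89.6% from the weakest to the strongest class, against 68.1%, 72.7%, 72.0%, 72.9% and 84.0% of shared sites. It was lower in 4 of the 5 classes and higher in the strongest, which held 48 Afos-only sites. In the second GR Dex list the Afos-only share was 18.7%, 17.0%, 18.4%, 29.5% and 58.3%, against 27.4%, 35.5%, 44.7%, 56.7% and 77.9%, lower in all 5 classes. Rank in the first list therefore did not remove the difference in the second. Within a class, Afos-only sites may still be weaker in the second Dex+E2 list, which these classes do not match.

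**Figure D2:**
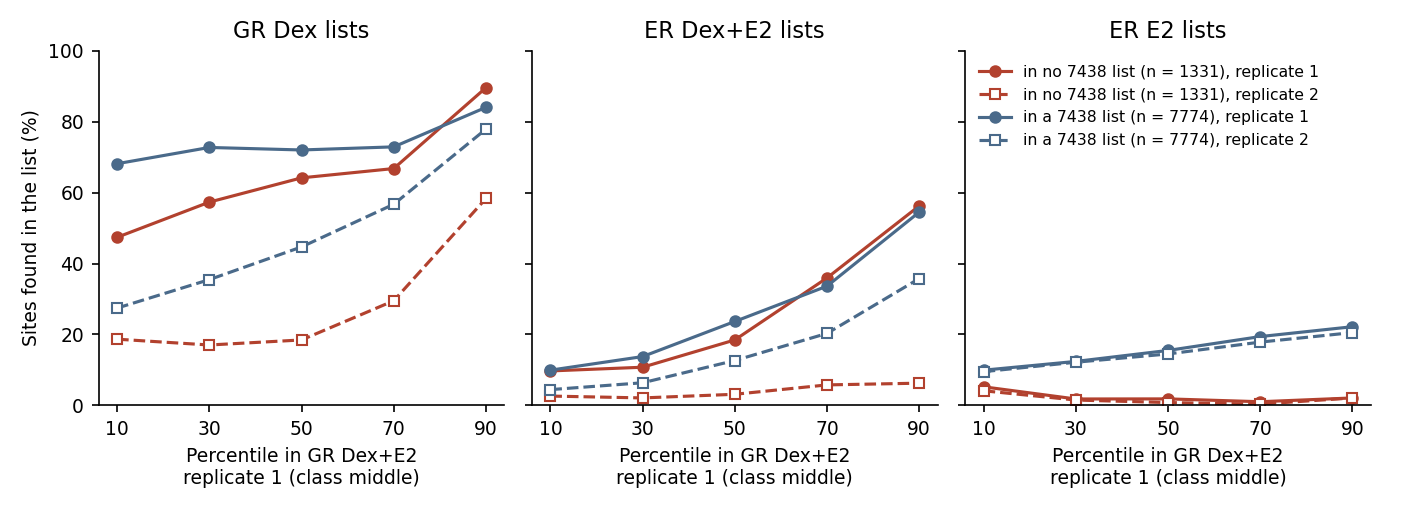
Percent of Afos-only (red) and shared (blue) sites found in the GR Dex, ER Dex+E2 and ER E2 lists of Afos cells, by class of percentile in the first GR Dex+E2 list; filled circles are replicate 1 and open squares replicate 2. The red lines lie below the blue lines in all classes of the second GR Dex, second ER Dex+E2 and both ER E2 lists, and cross them in the first GR Dex and first ER Dex+E2 lists.

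GR was almost absent from Afos-only sites without Dex. The GR lists of untreated Afos cells held 4 (0.301%) and 9 (0.676%) of the 1331 sites, where the background over all reproducible sites was 0.692% and 1.72%. At least 1 untreated list held 9 (background 1.86%) and both held 4 (background 0.56%). With E2 alone they held 7 (0.526%) and 5 (0.376%), where the background was 3.5% and 1.23%, and both held 5 (background 1.2%). These lists were short, with 95 and 315 sites untreated and 490 and 146 with E2. Dex exceeded untreated by 60.3 and 21.3 percentage points in the 2 replicates, 40.8 on average (41.3% ± 27.3 against 0.488% ± 0.266, SD, n = 2). The Dex and untreated lists did not overlap in this share; the exact permutation test gave p = 0.333, the smallest possible (adjusted 0.444). E2 differed from untreated by -0.0376 points on average (0.451% ± 0.106 with E2), and the sign differed between replicates (exact permutation p = 1). When the strongest sites were taken in equal number from each list compared, so that each kept only as many as the shortest list holds, the Dex difference became -0.263 points.

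**Figure D3:**
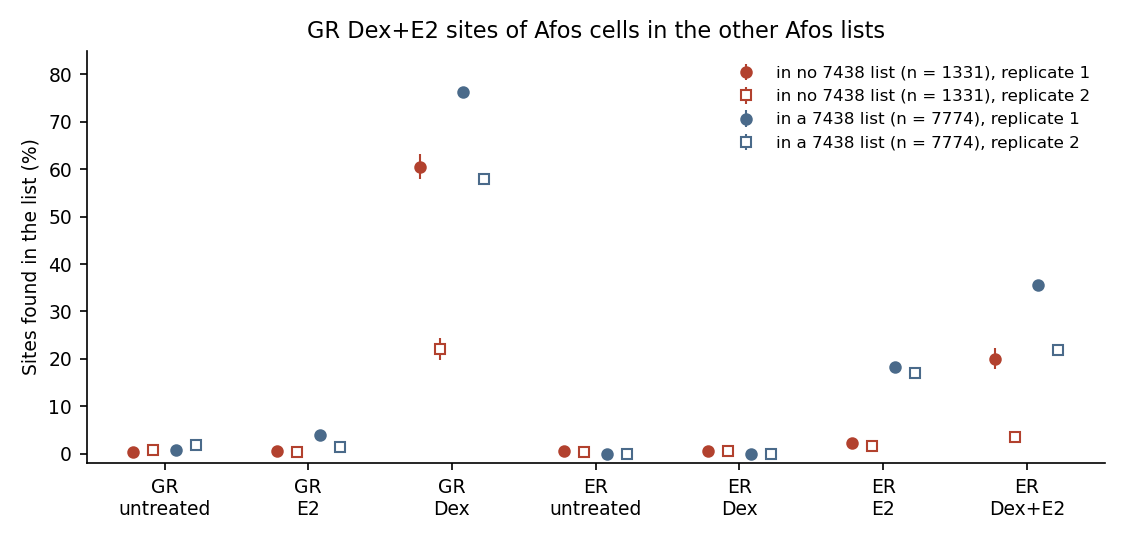
Percent of Afos-only (red, n = 1331) and shared (blue, n = 7774) GR sites found in each other list of Afos cells, by receptor and treatment; circles are replicate 1, open squares replicate 2, and bars exact 95% binomial intervals. Afos-only sites reach 60.6% and 22.0% with GR Dex and 19.99% and 3.46% with ER Dex+E2, below shared sites in each of these lists, and stay at or below 2.33% elsewhere.

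ER was asked for at the same sites. With both hormones, ER lists held 266 Afos-only sites in replicate 1 (19.99%, exact 95% interval 17.9% to 22.2%) and 46 in replicate 2 (3.46%, 2.54% to 4.58%), against a background of 33.3% and 19.2%. At least 1 list held 271 sites (20.4%; background 33.7%), and both held 41 (3.08%; background 18.8%). The ER lists had 5905 and 2564 sites. The mean share was 11.7% ± 11.7 (SD, n = 2) for Afos-only and 28.7% ± 9.68 for shared sites. The difference was -15.6 points in replicate 1 and -18.4 in replicate 2, lower in both lists (exact sign-flip permutation over the paired lists p = 0.5; unpaired exact permutation p = 0.333, adjusted 0.444; each the smallest possible). The rule also removed sites present in a 7438 ER list, so a low ER share is in part fixed by the choice. Against the 4 GR lists of 7438 alone, 1926 sites qualified, and their mean share in ER Dex+E2 lists was 29.7%.

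With E2 alone, ER was found at still fewer Afos-only sites: 31 (2.33%, exact 95% interval 1.59% to 3.29%) and 21 (1.58%, 0.979% to 2.40%), where the background was 16% and 14.8%. The mean was 1.95% ± 0.531 (SD, n = 2) against 17.7% ± 0.900 for shared sites, a difference of -15.7 points, also lower in both lists (exact sign-flip permutation p = 0.5; unpaired exact permutation p = 0.333, adjusted 0.444). The same limit applies: with only the 4 GR lists of 7438, the mean E2 share was 17.5%, so the near absence of E2-alone ER sites rested on the 7438 ER lists in the rule. ER lists with E2 were not short, at 6046 and 4687 sites. Of the 34 Afos-only sites in at least 1 of them (2.55%; background 16.6%), the median percentile in the first GR list was 21.4.

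Thus ER occurred at more Afos-only sites with both hormones than with E2. Over all reproducible sites the order was the same, with 33.3% and 19.2% against 16% and 14.8%. Shared sites had mean shares of 28.7% and 17.7%, so an excess was not particular to Afos-only sites. At Afos-only sites the excess was 17.7 points in replicate 1 and 1.88 in replicate 2. Its mean was 9.77 (exact permutation p = 0.333, adjusted 0.444), and it rested mainly on the first ER Dex+E2 list. Without that list it was 1.5 points, and with equal list lengths 2.07. Of the 271 sites with ER under both hormones, 245 (90.4%, exact 95% interval 86.3% to 93.6%) were in neither ER E2 list. These 245 sites were 18.4% of the Afos-only sites, where the background was 18.1%, so the share with this pattern was near that of all reproducible sites. The ER Dex lists held 7 sites in each replicate (0.526%; background 0.11% and 0.0879%), 8 in at least 1 list (background 0.121%) and 6 in both (background 0.0769%). Against these lists ER with Dex+E2 was higher by 19.5 and 2.93 points. The mean excess was 11.2 points (exact permutation p = 0.333; adjusted 0.444), and it became -0.451 points with lists of equal length. ER with E2 exceeded ER in untreated cells by 1.73 and 1.13 points, 1.43 on average (exact permutation p = 0.333; adjusted 0.444), and by -0.488 with equal lengths.

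Within rank classes the first ER Dex+E2 list did not separate Afos-only from shared sites. It held 9.70%, 10.7%, 18.4%, 35.9% and 56.3% of Afos-only sites, from the weakest class to the strongest, and 9.92%, 13.8%, 23.7%, 33.6% and 54.5% of shared sites. The order changed between classes, with Afos-only sites lower in 3 of 5. In the second list the shares were 2.61%, 2.09%, 3.12%, 5.76% and 6.25%, against 4.43%, 6.36%, 12.6%, 20.3% and 35.8%, lower in all 5. The 2 ER replicates therefore gave different pictures for sites of like rank in the first GR list. These classes do not match rank in the second GR list, where the median percentile was 20.5 for Afos-only and 61.5 for shared sites. The ER lists also differed in length, with 5905 and 2564 sites. In both ER E2 lists Afos-only sites were lower in all 5 classes, and in the first they ranged from 1.02% to 5.22% where shared sites ranged from 9.92% to 22.2%. The rule removed sites in the ER lists of the parental cells, so these lower ER shares are in part fixed by the choice. With only the parental GR lists in the rule, mean shares over all ranks were 29.7% (ER Dex+E2) and 17.5% (ER E2). Shared sites of the full rule had 28.7% and 17.7%. Whether any difference within classes would then remain was not tested.

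GR with Dex alone and ER with both hormones tended to be listed at different Afos-only sites. Neither GR Dex list held 508 sites (38.2%, background 25.3%), 1 list held 547 (41.1%) and both held 276 (20.7%, background 52.1%). Of the shared sites, 23.2%, 19.4% and 57.4% were in these groups, in the same order. The rule removed sites in the GR Dex list of the parental cells, so these differences are in part fixed by the choice. ER with Dex+E2 was in at least 1 list at 172 of the 508 sites (33.9%, exact 95% interval 29.7% to 38.2%), at 71 of the 547 (13.0%, 10.3% to 16.1%) and at 28 of the 276 (10.1%, 6.85% to 14.3%). The sites without GR in Dex were thus those with ER most often, although they were the weakest GR sites, at median percentiles of 38.1, 44.6 and 53.6 for the 3 groups. All 172 sites were in the first ER list and 30 (5.91%) in the second, so the count again came mainly from 1 list. The second list held 1.83% and 2.17% of the groups with 1 and 2 Dex lists. Sites with ER in at least 1 Dex+E2 list and no GR in Dex were 12.9% of the Afos-only sites, where the background was 17.7%.

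The same order was seen among sites of like rank. In the class from percentile 60 to 80, the first ER Dex+E2 list held 68.0% of 97 Afos-only sites with no GR Dex list, 28.6% of 112 with 1 and 9.30% of 86 with both. From 40 to 60 the shares were 37.9%, 10.1% and 3.08%. In the 2 lower classes they were 20.7%, 2.84% and 5.56%, and 16.4%, 1.10% and 6.98%, so sites with no Dex list were highest while the other groups changed order. Above percentile 80 few sites were left: ER was at 5 of 5 sites with no Dex list, 10 of 15 with 1 and 12 of 28 with both. Shared sites showed the same order at the first step, with ER in at least 1 list at 80% of those with no Dex list, 21.4% of those with 1 and 23.1% of those with both. The pattern is therefore not particular to Afos-only sites.

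**Figure D4:**
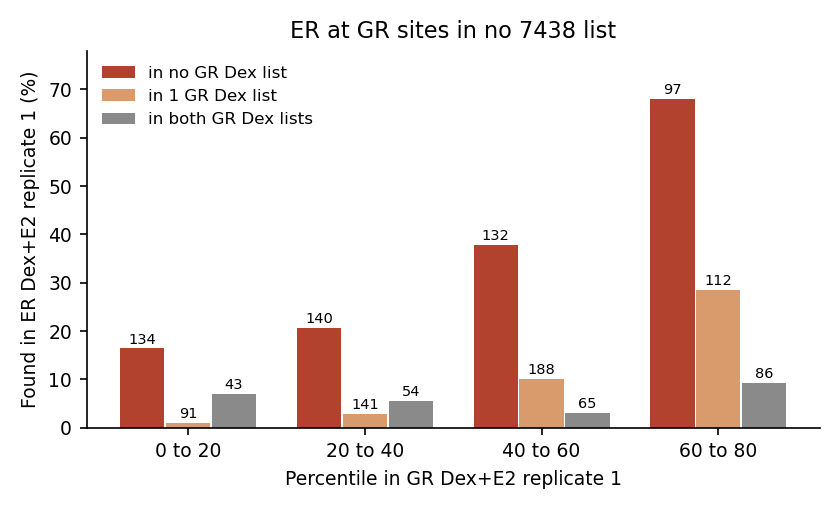
Percent of Afos-only sites found in the first ER Dex+E2 list, by class of percentile in the first GR Dex+E2 list and by the number of GR Dex lists that held the site; the number above each bar is the number of sites, and the class above percentile 80, with 5, 15 and 28 sites, is not drawn. Sites in no GR Dex list (red) have the highest share in all 4 classes, reaching 68.0% between percentiles 60 and 80.

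Afos-only sites with ER at Dex+E2 were the stronger GR sites, more clearly in the first list. The median percentile in the first GR list was 59.8 for the 271 sites with ER and 39.7 for the 1060 without. In the second GR list it was 24.8 and 19.2. A GR Dex list held 36.5% of the former and 68.3% of the latter. Shared sites showed the same order, with 82.1 and 63.7 in the first list and 66.2 and 59.4 in the second. Of these, 48.5% and 92.8% were in a GR Dex list. Among Afos-only sites, 153 (11.5%) were in an ER Dex+E2 list and in no GR Dex and no ER E2 list. Neither receptor was thus listed there with its own hormone alone. Among shared sites 436 (5.61%) had this pattern, and the background was 6.47%; the rule's use of 7438 GR Dex and ER lists bears on this share too. Another 328 sites (24.6%) were in no other Afos list at all, against 325 shared sites (4.18%) and a background of 7.17%. This difference, too, is in part fixed by the rule. The median percentiles of the 328 sites were 32.4 and 15.0 in the 2 GR lists, below the 43.5 and 20.5 of all Afos-only sites. Of sites with ER in both Dex+E2 lists, chr13:111446851-111447553 had GR densities of 22.3 and 19.0 and ER densities of 10.9 and 10.4. At chr10:115717679-115718435 the GR densities were 23.0 and 17.3 and the ER densities 20.01 and 8.88, with no GR site in Dex.

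Where Afos-only sites were listed by ER, their rank was low there too. The median percentile within the ER Dex+E2 lists was 23.6 and 23.8, against 70.03 and 59.96 for shared sites, and within the ER E2 lists 31.9 and 25, against 77.5 and 74.6. Low rank was thus seen both in the GR lists that chose them and in each of the GR Dex, ER Dex+E2 and ER E2 lists. The rule removed sites listed for either receptor in the parental cells, so these ranks may be in part fixed by the choice. They were not tested.

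A few Afos-only sites were listed in cells without the ligand of the receptor that was precipitated. In all, 13 sites (0.977%) were in at least 1 of the 8 Afos lists of this kind, fewer than the 474 shared sites (6.10%) and the background of 5.35%. The order was the other way round for ER lists without E2, which held 10 Afos-only sites (0.751%) and 3 of the 7774 shared sites (0.0386%), with a background of 0.143%. Untreated ER lists, of 35 and 49 sites, held 8 (0.601%) and 6 (0.451%) Afos-only sites, where the background was 0.0879% and 0.0659%, and no shared site, which allows a share of up to 0.0386% by 3 counts of the total and 0.0474% by the exact 95% interval. All reproducible GR sites found in untreated ER lists were thus Afos-only sites. Of the 13, 8 were in both a GR list without Dex and an ER list without E2. Their positions recur across antibodies and treatments; input libraries were not analysed here, so whether they also occur without an antibody was not tested.

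Of these sites, 3 were in all 8 lists without the receptor's ligand. At chr3:95848401-95849131 the density was 17.3 and 8.24 for GR with Dex+E2, 8.18 and 11.02 for GR in untreated cells, and 6.94 and 7.53 for ER in untreated cells. At chr8:72095851-72096325 it was 8.62 and 13.5 for GR with Dex+E2, 10.7 and 14.5 for untreated GR and 11.1 and 6.36 for untreated ER. At chrX:123303037-123303793 it was 5.46 and 13.6 for GR with Dex+E2, 2.28 and 8.85 for untreated GR and 7.01 and 9.66 for untreated ER. At each of these sites the densities with and without hormone overlapped. None of the 10 strongest sites was in any list without ligand. Only 0.977% of all Afos-only sites were, so 10 sites are too few to show a contrast. The 10 sites in ER lists without E2 had a median GR percentile of 1.8 and a median width of 436.5 bp. Without the 13 sites the shares in GR Dex and ER Dex+E2 lists were 41.3% and 11.2%, close to the 41.3% and 11.7% with them.

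Most Afos-only sites were far from the nearest 7438 GR site. The median distance was 54104 bp, with a middle 50% from 16941 to 156999 bp, and the nearest 7438 ER site was at a median of 29392 bp. Within 1 kb of a 7438 GR site lay 36 sites (2.70%), within 10 kb 230 (17.3%), within 100 kb 854 (64.2%) and within 1000 kb 1296 (97.4%). For shared sites the distance was measured to the nearest 7438 GR site that they did not overlap. It had a median of 13810 bp, and 10.9% were within 1 kb, 44.0% within 10 kb and 85.5% within 100 kb. Afos-only sites were thus more isolated than shared sites at each of these distances. The rule itself removes sites that overlap a 7438 site, and no test was made. The 2909 sites in the first list alone, with no 7438 site, had similar medians, 54232 bp to GR and 28900 bp to ER. The isolation was therefore not particular to the reproducible sites. Neighbours of Afos-only sites within their own list were also farther. The nearest other reproducible site was at a median of 50733 bp, against 23283.5 bp for shared sites and 55999 bp for the unreplicated sites.

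**Figure D5:**
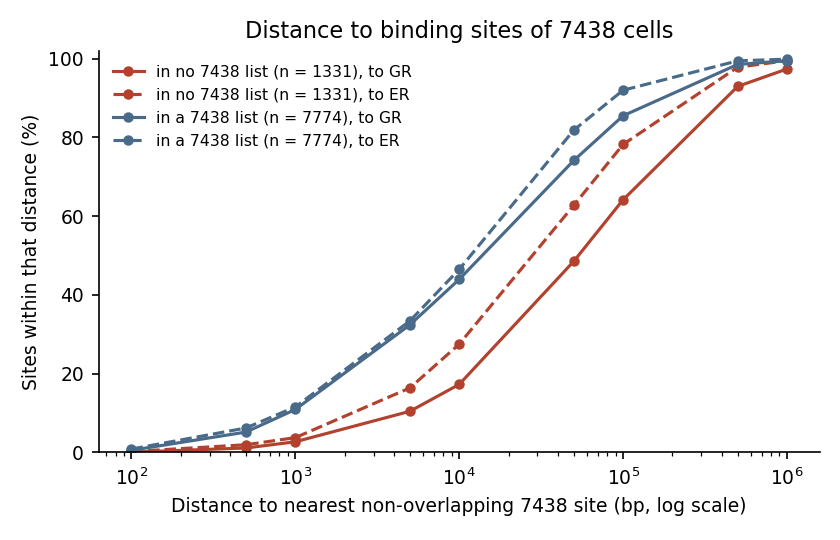
Cumulative percent of Afos-only (red) and shared (blue) sites within a given distance, on a log axis in bp, of the nearest 7438 GR site (solid) or ER site (dashed) that they do not overlap. The red curves lie below the blue ones, with medians to GR of 54104 bp and 13810 bp.

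The nearest 7438 GR site came from the Dex list for 830 Afos-only sites, from the list labelled untreated for 483 and from the E2 list for 18. Strength and receptor presence were also set out by this distance. For sites within 1 kb, from 1 to 10 kb, from 10 to 100 kb and beyond 100 kb, numbering 36, 194, 624 and 477, the median percentile was 52.4, 48.8, 47.8 and 33.4. The first GR Dex list held 44.4%, 53.6%, 63.8% and 60.4% of them, and the first ER Dex+E2 list 30.6%, 23.7%, 18.6% and 19.5%. From the nearest class to that of 10 to 100 kb, the share was higher at each step in the first GR Dex list and lower at each step in the first ER list, but the nearest class held only 36 sites and no test was made. The second lists did not show either order, with 25%, 15.5%, 23.1% and 23.1% for GR Dex and 2.78%, 1.55%, 3.37% and 4.40% for ER. Median widths were between 586 and 603 bp in all 4 distance classes.

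Few sites lay at the immediate border of the rule. The Afos-only site nearest to a 7438 GR site was chr5:3152297-3152801, 17 bp away, with GR densities of 7.35 and 9.16. Next came chr17:66911929-66912740 at 163 bp, with 17.9 and 12.8, and chr6:113048934-113049481 at 249 bp. Just outside the rule, chr6:134853723-134854188 shared 12 bp with a 7438 GR Dex site and had densities of 15.0 and 10.3, and chr14:79673810-79674249 shared 29 bp and had 7.34 and 3.14. Only 76 of the 7774 shared sites held less than a whole 150 bp site of 7438, whereas 68 Afos-only sites had a 7438 site of either receptor within 1 kb. By partial overlap and by nearness within 1 kb, the border thus touched few sites, but other settings moved more. When only the central 150 bp of each Afos site was compared with the 7438 lists, 1630 sites were chosen. When no 7438 site was allowed within 5000 bp, 1046 were chosen.

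At the other end, the site farthest from any 7438 GR site was chr4:70145009-70145664, at 3589126 bp, with GR densities of 18.8 and 14.8. It was also in the first GR Dex list at 10.9 and in the first ER Dex+E2 list at 9.95. The next 4 lay on the X chromosome, 3 of them close together, at chrX:106311127-106311642, chrX:106332452-106333156 and chrX:106337603-106338176. Their densities in the first list were 12.4, 16.6 and 9.26.

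The X chromosome held an uneven share of Afos-only sites. Of 176 reproducible sites on X, 63 (35.8%, exact 95% interval 28.7% to 43.4%) were Afos-only, against 1268 of 8929 (14.2%, 13.5% to 14.9%) on autosomes, where single chromosomes ranged from 9.94% to 19.9%. The lists differed in the same direction. Between 0% and 1.34% of sites in the 7438 GR lists were on X, and between 2.01% and 2.28% in the GR Dex and Dex+E2 lists of Afos cells. The range was 0.268% to 1.12% in the 7438 ER lists, and 1.27% to 1.60% in the ER E2 and Dex+E2 lists of Afos cells. Afos-only sites on X had a median percentile of 30.2 and a median distance to a 7438 GR site of 156894 bp, against 44.5 and 50933.5 bp on autosomes. Their share in the first GR Dex list, 60.3%, was close to the 60.6% of autosomal sites. The part of this difference between the lists in the share on X was not tested. Leaving X out kept 1268 sites with a mean share of 41.2% in GR Dex lists and 11.6% in ER Dex+E2 lists.

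Most Afos-only sites were otherwise spread over the genome. In windows of 1 Mb, 594 sites (44.6%) were the only Afos-only site in their window. The nearest other Afos-only site was at a median of 392311 bp, against 399490 bp from shared sites. At short range another Afos-only site was more often near an Afos-only than a shared site. Within 5 kb of another Afos-only site lay 73 of them (5.48%) and 148 shared sites (1.90%). Of the Afos-only sites, 25 (1.88%) lay within 500 bp of another. Whether such neighbours are 1 region listed in pieces was not tested. Within 5 kb of any other reproducible site lay 15.0% of Afos-only and 23.8% of shared sites, the opposite order. The window with most lay on chromosome 7 from 51 to 52 Mb, with 6 Afos-only sites of 15 reproducible ones. All 6 were in a GR Dex list and 2 in an ER Dex+E2 list, and their median percentile was 68.8. Windows on chromosome 5 from 116 to 117 Mb and on X from 96 to 97 Mb held 5 of 6 each. Of these 10 sites, 4 and 5 were in a GR Dex list and 2 and 1 in an ER Dex+E2 list.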

How the data were processed

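GR and ER ChIP-seq lists of 16 Afos and 8 7438 samples were used; 15 other samples were not analysed here. Each deposited list gives, per the file headers, the highest and average tag density of a site (a signal value made by the authors) and a z-score (the authors' score); Afos lists also give a deposited p-value, not used. Per the submitters' processing notes, the build was mm9 and CASAVA 1.8 was used. The sources used here do not give the aligner, peak caller, control, thresholds or coordinate base. Density was used as listed or ranked within its list. Higher depth or a looser threshold lengthens a list and so raises the chance that a site is found in it.

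Groups came from the labels, which do not say whether replicates were separate cultures, so their spread may be technical. Overlap required 1 bp on the same chromosome. The unit of every test was the replicate list: two-sided exact permutation of 2 lists against 2 (for Afos-only against shared sites, the same 2 lists measured for both classes, so the paired sign-flip is printed beside it), adjusted by Benjamini-Hochberg over 8 tests, with a threshold of 0.05 that no such test can reach. The overlap and test code was tested on simulated data. Members, classes and alternatives were chosen with earlier results of these data known. Sites were named by a rule: the strongest by mean percentile of both GR Dex+E2 lists (10 in all, 5 in each class), the 5 nearest, farthest and least overlapping, those in untreated lists, and the fullest windows of 1 Mb; leading ones are printed. Same-numbered lists were checked as a block. Alternatives covered the overlap, distance, 7438 lists used, thresholds, list length, source list and each replicate left out; restriction to autosomes and removal of sites in lists without ligand were added after seeing the data. No mm9 genome or annotation was used here, so no sequences or genes are given. Python 3.11.15, pandas 2.3.3, NumPy 2.4.6, SciPy 1.17.1, statsmodels 0.14.6 and matplotlib 3.10.9 were used.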

Additional observations from a re-analysis of the deposited data

How the results depend on the processing

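The number of Afos-only sites depended most on the lists themselves. It was 2552 when the 7438 GR Dex list was not used, 125 with only the upper 50% of sites by density in each list, and 401 when Afos sites had to meet the 7438 lower limits. With 1 Afos list left out and no replication asked for, it ranged from 1592 (without the first) to 4240 (without the second). The other alternatives gave 958 to 1926 sites. The mean share in ER Dex+E2 lists was 29.7% with only the 7438 GR lists in the rule. The mean share in ER E2 lists was then 17.5%; it was 1.30% for sites above the median density and 0.623% under the 7438 limits. Leaving out a list moved the GR Dex share between 22.0% and 60.6% and the ER Dex+E2 share between 3.46% and 19.99%. With equal list lengths those shares were 19.9% and 2.48%, and the excess over the lists without ligand changed sign: -0.263 points for GR Dex against untreated, -0.451 for ER Dex+E2 against Dex and -0.488 for ER E2 against untreated. The cause was not tested beyond the construction. Each list was cut to the shortest one compared, of 95, 41 and 35 sites in that order, which keeps only the strongest. GR with E2 against untreated changed sign or vanished: leaving out a list gave -0.225 to 0.15 points, and it was 0 for sites above the median density and 0 without the sites found in lists without ligand. Taking the sites from the second list gave a median percentile of 20.2 and a median width of 470.5 bp. The other alternatives kept the direction of the differences between Afos-only and shared sites.

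With same-numbered lists as a replicate block, the differences stayed as printed: 40.8 points for GR Dex against untreated, -0.0376 for GR E2 against untreated, 11.2 for ER Dex+E2 against Dex, 1.43 for ER E2 against untreated and 9.77 for ER Dex+E2 against E2, and -25.9, -17.0 and -15.7 for Afos-only against shared sites in GR Dex, ER Dex+E2 and ER E2 lists. The exact sign-flip p under the block was 0.5, the smallest possible, and 1 for GR E2 against untreated. Depth is unknown, so absence from a list means only that no site was called at its unstated threshold.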
